A study of Mus musculus with 6 samples.

Results

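This account covers 44 mouse genes for chemokines, cytokines, their receptors, cell adhesion molecules and an inflammatory enzyme. They were chosen by symbol and found by that symbol among the 54532 rows of the deposited table. All 44 were found, and 19 of them reached 1 FPKM in at least 3 libraries, the filter that left 11730 rows for testing. Of the 44, 18 were at 1 FPKM or more in all 6 libraries, Ccl2 in 5 and the other 25 in none. FPKM is the number of reads on a gene, divided by the gene's exon length and by the depth of the library. Sequencing measured the RNA of MC3T3-E1, an established pre-osteoblast cell line from mouse skull bone. The 3 control libraries came from cells under normal conditions and the 3 GC libraries from cells given glucocorticoid, all taken at 12 hours. The replicates are called biological in the design text, which does not say how the cultures were grown apart, so p-values measure only the spread between these libraries, which may be technical. Neither the kind of glucocorticoid nor the dose is in the labels, and the study concerns osteoblast death under glucocorticoid.

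Chemokines are small secreted proteins that attract cells through receptors coupled to G proteins, while interleukins and related cytokines act mostly through paired receptor chains that activate JAK kinases and STAT factors, or through the Toll and interleukin 1 receptor adaptors. Bone-forming cells make many of them and so steer blood-forming cells, osteoclast precursors and leukocytes in the marrow. Glucocorticoids are known for lowering the transcription of many inflammatory genes, and they are given as drugs for that reason.

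The libraries held between 15831674 and 17862790 recovered reads, which are whole read numbers computed back from FPKM. Tsc22d3, an induced target of the glucocorticoid receptor that serves as a check of the labels, was at 28.4 ± 1.43 in control and 162 ± 14.4 FPKM in GC (SD, n = 3 each). Of 11 osteoblast lineage markers 8 passed the filter, among them Col1a1, Runx2 and Sp7, while Alpl, the alkaline phosphatase, was listed at 0 in all libraries but GC replicate 3. The 11 summed to 3999 to 4194 in control and 3482 to 3757 FPKM in GC. Of the 8 tested, 5 had positive and 3 negative log2 fold changes, GC minus control, from -0.32 to 1.79. In 3 of the 8 all GC libraries lay above all controls and in 2 below, orders that held in 10.8% and 14.8% of all tested rows. Within that list Postn, a matrix protein, was the marker that passed, higher at 15.2 ± 3.89 in control and 54.4 ± 9.66 FPKM in GC (adjusted p = 0.0136 by limma-trend, 0.0940 without GC replicate 3), and Ibsp, bone sialoprotein, at 0.389 ± 0.297 and 1.62 ± 0.382 FPKM, passed with the replicate block (adjusted p = 0.0175) and not without it (0.0684). The 10 macrophage markers summed to 15.4 to 20.6 in control and 22.9 to 32.8 FPKM in GC, with Adgre1 and Tyrobp listed at 0 in all 6 libraries and at most 3 reads of Ptprc in any. Lyz2, a lysozyme among them, was at 8.64 ± 2.05 in control and 17.4 ± 3.35 FPKM in GC (adjusted p = 0.0507 by limma-trend, 0.00304 with the replicate block). Cd14, the other tested macrophage marker, had a log2 fold change of 0.10, GC minus control, and passed in neither fit. The 5 epithelial markers summed to 1.83 to 2.5 in control and 0.169 to 0.761 FPKM in GC, with Epcam listed at 0. Krt14, a keratin, made up most of the control sum and fell, at 1.93 ± 0.426 in control and 0.0895 ± 0.0845 FPKM in GC (adjusted p = 0.0146 by limma-trend, 0.0645, 0.0828 and 0.0940 without control replicate 1, control replicate 2 or GC replicate 3), while Cdh1 was at 0.235 ± 0.111 and 0.206 ± 0.0605 FPKM. The 9 endothelial markers summed to 6.60 to 8.13 in control and 4.89 to 7.13 FPKM in GC, with Kdr and Cldn5 listed at 0. Flt1, the 1 of them that was tested, had a log2 fold change of -0.36, GC minus control, with overlapping groups. It did not pass by limma-trend with or without the replicate block, and passed as lower without GC replicate 2. Macrophage and endothelial cells make several of the genes described here, and the part of these markers in the results was not tested.

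Cells given GC held more RNA of Cxcl12, the chemokine that retains blood-forming cells in the marrow, and of Vcam1, the adhesion molecule that binds leukocyte integrins. These were the 2 of 19 tested members that rose, and no member fell, while 17 did not pass. The threshold was an adjusted p under 0.05 by limma-trend with Benjamini-Hochberg adjustment over all tested rows. Among all tested rows 1.94% were called in either direction, 1.08% higher and 0.853% lower and the members' count rests on 2 genes. The members' median log2 fold change was -0.03 and that of all tested genes -0.01, with 9 members positive, 10 negative and a range from -0.71 to 0.70. Fold changes are differences of log2(FPKM + 1), GC minus control, so the change of weakly expressed genes is understated.

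With the replicate number as a block, 3 members passed as higher and 2 as lower. The 3 higher were Cxcl12, Vcam1 and Il11ra1, and the 2 lower were Il1rl1 and Cx3cl1. Over all tested rows the block called 8.96%, with 3.96% higher and 5.0% lower. limma-voom on the recovered reads passed 2 members as higher and 2 as lower, against 3.03% of all rows it tested. In 4 members all GC libraries lay above all controls, and in 3 all GC libraries lay below. These orders held in 10.8% and 14.8% of all tested rows.

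**Figure D1:**
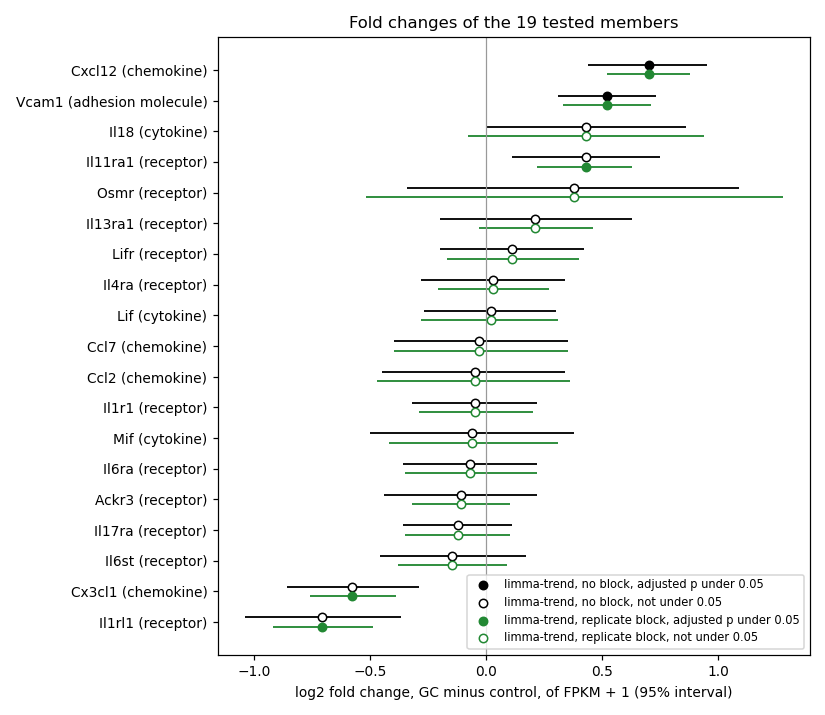
Log2 fold change of FPKM + 1, GC minus control, for the 19 tested members, with 95% intervals from limma-trend without a block (black) and with the replicate number as a block (green), where filled points passed an adjusted p of 0.05. Cxcl12 at 0.70 and Vcam1 at 0.52 are filled in both fits, Il11ra1, Cx3cl1 and Il1rl1 only with the block, and the other 14 in neither.

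Promoter sequences are shown to let the chemokine that rose be read beside a chemokine and a cytokine that stood out in other ways. Cxcl12 is the member of these roles past the threshold, Cx3cl1 was lower in every GC library and Il6 higher in every GC library, and Il6 did not pass the filter. The choice of Cx3cl1 and Il6 was made after their values were seen. Each sequence runs 5′ to 3′ from 250 bases before to 50 bases after the RefSeq start, on the plus strand of GRCm38.p6. Capitals mark the matches to the motifs named here: a TATA box in Cx3cl1 and, in order, AP-1, C/EBP and NF-kB motifs in Il6. The regions are chr6:117168285-117168584 for Cxcl12, chr8:94771930-94772229 for Cx3cl1 and chr5:30012864-30013163 for Il6.
Cxcl12: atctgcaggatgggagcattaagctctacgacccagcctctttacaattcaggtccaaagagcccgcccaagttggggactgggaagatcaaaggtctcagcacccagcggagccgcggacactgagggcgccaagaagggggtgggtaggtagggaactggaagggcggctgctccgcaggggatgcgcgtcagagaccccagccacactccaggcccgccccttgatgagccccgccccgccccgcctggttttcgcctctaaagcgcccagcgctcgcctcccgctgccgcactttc
Cx3cl1: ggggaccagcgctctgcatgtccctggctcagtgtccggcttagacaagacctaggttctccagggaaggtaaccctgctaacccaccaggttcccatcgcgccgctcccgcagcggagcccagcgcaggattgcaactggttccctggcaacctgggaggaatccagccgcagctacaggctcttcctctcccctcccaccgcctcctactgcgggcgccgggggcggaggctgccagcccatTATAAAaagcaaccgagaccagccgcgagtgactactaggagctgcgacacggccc
Il6: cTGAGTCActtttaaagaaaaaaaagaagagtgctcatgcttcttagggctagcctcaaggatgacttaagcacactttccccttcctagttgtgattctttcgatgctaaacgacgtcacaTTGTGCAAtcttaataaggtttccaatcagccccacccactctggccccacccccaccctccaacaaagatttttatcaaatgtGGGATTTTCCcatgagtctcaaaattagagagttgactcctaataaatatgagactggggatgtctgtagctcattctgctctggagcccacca

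The TATA box match (TATAAA, gene strand) in Cx3cl1 lies at -6 to -1 from the start. This RefSeq start lies downstream of the gene start in the annotation (chr8:94772009), so much of the Cx3cl1 window is inside the annotated gene. In Il6 the AP-1 match (TGANTCA) lies at -249 to -243 and the NF-kB match at -44 to -35. The C/EBP match lies at -128 to -121, where the motif TTGCNNAA reads on the strand opposite to the printed one. None of the 3 overlap. No searched motif is in the Cxcl12 window. The RefSeq table held 40 promoters for 32 of the 44 members and 32851 promoters in all. An NF-kB motif, searched on both strands, was in 9 of the members' 40 promoters (22.5%) and in 8.46% of all promoters. AP-1 and C/EBP were also searched on both strands. AP-1 was in 9 (22.5%) against 7.81% of all, C/EBP in 6 (15%) against 10.8%, and the TATA box in 11 (27.5%) against 8.32%. The glucocorticoid response element, both strands, was in 0 of the 40 and in 0.222% of all promoters, and the shorter site AGAACA, which is part of many such elements, was in 6 (15%) against 19%. Of the 9 members with an NF-kB match, Il1r1, Il4ra and Lif passed the filter, and Ccl20, Ccl9, Cxcl1, Cxcl10, Cxcl2 and Il6 did not. A match is a description of letters, and binding was not measured here.

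Chemokine RNA in these cells was mostly that of Cx3cl1 and Cxcl12. Of 15 chemokines 4 passed the filter, Cxcl12, Cx3cl1, Ccl7 and Ccl2, while 9 were below it and 2 were listed at 0 in all libraries. Over all 6 libraries Cx3cl1 averaged 19.1 FPKM and Cxcl12 18.5 FPKM, and Ccl7 and Ccl2 averaged 1.5 and 1.42 FPKM.

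Cxcl12 (ENSMUSG00000061353.11) lies on the plus strand at chr6:117168535-117181367 in mm10, with 8176 exon bases in the annotation. Its product, also called SDF-1, signals through Cxcr4 and is bound by Ackr3. The FPKM of Cxcl12 was 15.2, 13.8 and 12.6 in control replicates 1 to 3 and 25, 23.0 and 21.3 in GC replicates 1 to 3. All GC libraries lay above all controls, and the lowest GC library stood well clear of the highest control. The means were 13.9 ± 1.27 FPKM and 23.1 ± 1.83 FPKM (SD, n = 3 each), a ratio of 1.67. On the log2 scale Cxcl12 rose by 0.70 ± 0.11 (SE, 95% interval 0.44 to 0.95), with an adjusted p of 0.0295 by limma-trend. The differences within the same replicate number were close to each other, at 0.68, 0.70 and 0.71. These values rest on 1623 to 3466 recovered reads per library. In bulk RNA a change in the number of cells that make a transcript and a change in RNA per cell cannot be told apart. The call was lost without a filter on low values (adjusted p = 0.129) and when any single library but GC replicate 2 was left out: the adjusted p was 0.0821, 0.144 and 0.123 without control replicate 1, 2 or 3, 0.0548 without GC replicate 1, 0.1 without GC replicate 3 and 0.0231 without GC replicate 2, by limma-trend.

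Both receptors of Cxcl12 were looked at beside it. Ackr3, which takes up and clears Cxcl12, was at 16.6, 13.6 and 11.6 in control and 14.3, 11.8 and 12.1 FPKM in GC. Control replicate 1 was the highest, and the groups overlapped throughout. The log2 fold change of -0.11 ± 0.14 (95% interval -0.44 to 0.22) did not pass, at an adjusted p of 0.745 by limma-trend, and it was 0.01 without control replicate 1. Cxcr4, the signalling receptor, was near 0, with 1 read in GC replicate 1, 1 read in GC replicate 2 and none elsewhere.

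Cx3cl1 (ENSMUSG00000031778.13, chr8:94772009-94782427, plus strand, 3930 exon bases) encodes fractalkine, which is made as a membrane-bound adhesion molecule and released as a chemoattractant. Control libraries held 24.7, 24.5 and 20.1 FPKM and GC libraries 15.7, 16.3 and 13.4 FPKM. Every GC library was below every control. The means were 23.1 ± 2.62 and 15.2 ± 1.54 FPKM (SD, n = 3 each), a ratio of control to GC of 1.53. The log2 fold change was -0.58 ± 0.12 (95% interval -0.86 to -0.29), which missed the threshold at an adjusted p of 0.0620 by limma-trend. It passed with the replicate block (adjusted p = 0.0117), by limma-voom (0.0448) and without GC replicate 2 (0.0346). Within the same replicate number the differences were -0.62, -0.56 and -0.55. The reads numbered 909 to 1561 per library. Its receptor Cx3cr1 had 1 read, in GC replicate 1.

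The monocyte chemoattractants Ccl2 and Ccl7 were low and close to the filter. Ccl2, also known as MCP-1, was at 1.75, 1.51 and 1.12 in control and 0.983, 1.51 and 1.63 FPKM in GC. Control replicate 1 was highest, GC replicate 1 lowest, and the groups overlapped. Its log2 fold change was -0.05 ± 0.17 (95% interval -0.45 to 0.34, adjusted p = 0.905 by limma-trend), on 19 to 32 reads per library. Leaving out replicate 1 of either group turned the sign, to 0.03 without control replicate 1 and 0.07 without GC replicate 1. Ccl7, or MCP-3, was at 1.55, 1.11 and 1.91 in control and 1.62, 1.55 and 1.23 FPKM in GC. Again the groups overlapped, and control replicates 2 and 3 marked the lowest and the highest value. The log2 fold change of Ccl7 was -0.03 ± 0.16 (95% interval -0.40 to 0.35), with an adjusted p of 0.953 by limma-trend, on 14 to 24 reads. It was 0.08 without control replicate 3 and 0.05 without GC replicate 3.

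Cytokine RNA was dominated by Mif, macrophage migration inhibitory factor, which also acts inside cells as a tautomerase. At a mean of 584 FPKM over all 6 libraries it stood 30.6-fold above Cx3cl1, the next member, and held 79.1% of the summed FPKM of all 44 members. Mif read 613, 579 and 583 in control and 673, 439 and 619 FPKM in GC. Controls were close together, while GC replicate 2 lay below them and the other 2 GC libraries above. The means were 592 ± 18.7 and 577 ± 122 FPKM (SD, n = 3 each), and the log2 fold change was -0.06 ± 0.19 (95% interval -0.50 to 0.38, adjusted p = 0.906 by limma-trend). Without GC replicate 2 it was 0.13 with an adjusted p of 0.490. The mouse genome carries processed pseudogenes of Mif, so the assignment of its reads is uncertain. Cd74, the surface receptor of the MIF protein, was at 1.41, 1.26 and 0.812 in control and 2.46, 2.35 and 2.76 FPKM in GC, with every GC library higher. Its log2 fold change of 0.71 ± 0.15 missed the threshold (adjusted p = 0.0595) and passed with the replicate block (0.0341) and without GC replicate 2 (0.0429), all by limma-trend.

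**Figure D2:**
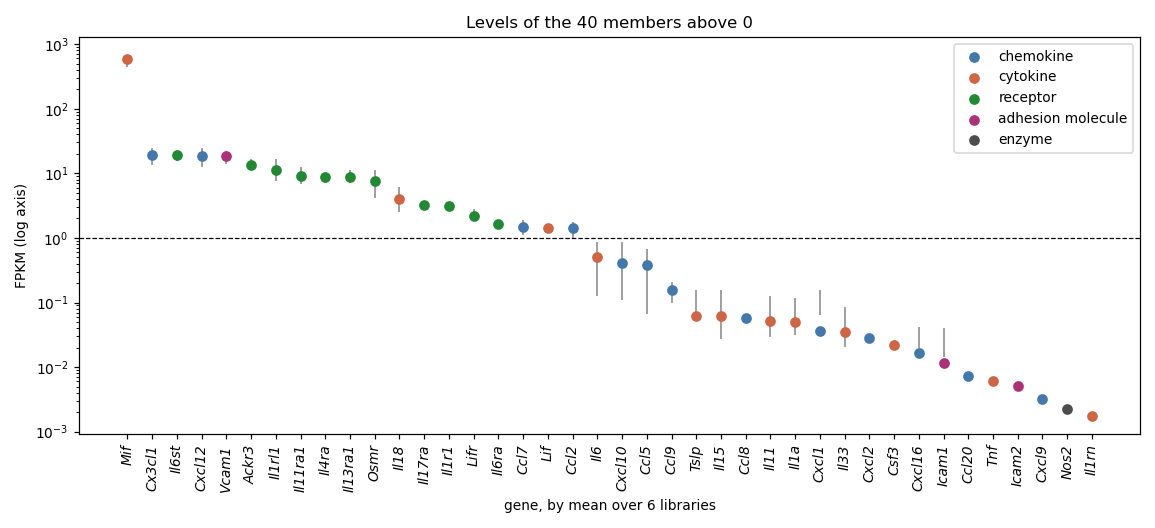
Mean FPKM over 6 libraries (log axis) of the 40 members above 0, in order and coloured by role, with vertical lines from the lowest value above 0 to the highest in any library and a dashed line at 1 FPKM. Mif stands alone at 584 FPKM, all 11 receptors lie above the dashed line, and most chemokines and cytokines lie below it.

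Of 14 cytokines 3 passed the filter, Mif, Il18 and Lif, while 9 were below it and 2 were listed at 0. Il18, an interleukin 1 family cytokine that is stored as an inactive precursor, was at 2.53, 3.77 and 3.27 in control and 6.23, 3.84 and 4.05 FPKM in GC. The groups did not overlap, but GC replicates 2 and 3 stood just above control replicate 2, and GC replicate 1 was far above all others. Its log2 fold change was 0.43 ± 0.19 (95% interval 0.00 to 0.86, adjusted p = 0.255 by limma-trend), and the differences within replicate numbers were 1.03, 0.02 and 0.24. Lif, leukemia inhibitory factor, which acts through Lifr and Il6st, was at 1.46, 1.42 and 1.33 in control and 1.45, 1.47 and 1.37 FPKM in GC. Its values lay in one narrow band. The log2 fold change was 0.02 ± 0.12 (95% interval -0.27 to 0.30, adjusted p = 0.959 by limma-trend), on 91 to 108 reads, and -0.01 without control replicate 3.

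Receptors were the role in which every member was expressed, since all 11 passed the filter. Among them Il6st was the highest and Il6ra the lowest, with means of 19.1 and 1.66 FPKM over all libraries. No receptor passed the threshold without the block, and 8 of the 11 had overlapping groups. Overlap was also the usual case among all tested rows, where groups were apart in 10.8% as higher and 14.8% as lower. With the block Il11ra1 passed as higher and Il1rl1 as lower, beside 3.96% higher and 5.0% lower of all tested rows.

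Il1rl1 (ENSMUSG00000026069.15, chr1:40429570-40465415, plus strand, 6894 exon bases) encodes ST2, the receptor of interleukin 33, whose soluble form acts as a decoy. It read 16.4, 14.7 and 11.7 in control and 9.51, 7.73 and 7.64 FPKM in GC. All GC libraries lay below all controls, and the control values were spread more widely. The means were 14.2 ± 2.41 and 8.29 ± 1.05 FPKM (SD, n = 3 each), a ratio of control to GC of 1.72. With a log2 fold change of -0.71 ± 0.14 (95% interval -1.04 to -0.37), it was the tested member with the lowest fold change, and it missed the threshold at an adjusted p of 0.0546 by limma-trend. It passed with the replicate block (adjusted p = 0.0108), by limma-voom (0.0322) and on the TPM scale (0.0382), and in none of the 6 fits that left out a library. Differences within replicate numbers were -0.73, -0.84 and -0.55. The values are sums over all exons, so the membrane-bound and soluble forms were not told apart.

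The ligand and the partner chain of Il1rl1 were measured as well. Il33 had 4, 0 and 0 reads in control and 1, 2 and 3 in GC, which is too few for a comparison. Il1rap, the chain shared with the interleukin 1 receptor, was at 1.80 ± 0.256 in control and 1.70 ± 0.280 FPKM in GC (SD, n = 3 each), with a log2 fold change of -0.06 and an adjusted p of 0.879 by limma-trend. Il1r1, the signalling receptor of interleukin 1, was at 3.29, 3.30 and 3.03 in control and 2.83, 3.55 and 2.87 FPKM in GC. GC replicate 2 was the highest value and the groups overlapped, with a log2 fold change of -0.05 ± 0.12 and an adjusted p of 0.877 by limma-trend.

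Il11ra1 (ENSMUSG00000073889.10, chr4:41699989-41769474, plus strand, 4471 exon bases) encodes the chain that binds interleukin 11, a cytokine of bone remodelling. Its FPKM was 8.35, 6.95 and 7.68 in control and 12.7, 8.89 and 10.6 in GC. The groups did not overlap, although GC replicate 2 was near control replicate 1. The means were 7.66 ± 0.699 and 10.7 ± 1.89 FPKM (SD, n = 3 each). The log2 fold change was 0.43 ± 0.14 (95% interval 0.11 to 0.75), which did not pass at an adjusted p of 0.156 by limma-trend. It passed with the replicate block (adjusted p = 0.0325) and without GC replicate 2 (0.0390), and not by limma-voom (0.130). Near-identical copies of the gene, Il11ra2 and Gm13305, lie on the same chromosome and make the assignment of reads uncertain, with Il11ra2 at most at 0.490 FPKM and Gm13305 listed at 0 in all libraries.

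Receptors of the interleukin 6 family share Il6st, the signal-transducing chain gp130. Il6st was at 21.2, 20.4 and 18.6 in control and 16.9, 21.8 and 15.7 FPKM in GC, with GC replicate 2 the highest of all and the other 2 GC libraries the lowest. Its log2 fold change of -0.15 ± 0.14 did not pass, at an adjusted p of 0.614 by limma-trend. Osmr, the receptor chain for oncostatin M, had the largest standard error among the tested members. It read 7.49, 8.15 and 4.10 in control and 5.53, 11.1 and 9.95 FPKM in GC. The lowest value was in control replicate 3, GC replicate 1 lay among the controls, and the groups overlapped. The interval of its log2 fold change, 0.38 ± 0.30, ran from -0.34 to 1.09 (adjusted p = 0.560 by limma-trend). Osm, its ligand, was listed at 0 in all libraries.

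Lifr, the chain that pairs with Il6st for leukemia inhibitory factor, was at 1.97, 2.07 and 2.10 in control and 1.96, 2.82 and 2.16 FPKM in GC. Il6ra, the chain that binds interleukin 6, was at 1.68, 1.75 and 1.73 in control and 1.37, 1.74 and 1.70 FPKM in GC. In both genes the groups overlapped, and 1 GC library stood apart, replicate 2 above the others for Lifr and replicate 1 below them for Il6ra. Their log2 fold changes were 0.11 ± 0.13 and -0.07 ± 0.13, with adjusted p-values of 0.707 and 0.828 by limma-trend.

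Il4ra and Il13ra1 together form a receptor for interleukins 4 and 13. Il4ra was at 9.97, 9.09 and 7.17 in control and 8.53, 9.89 and 8.33 FPKM in GC, with the GC values inside the range of the controls. Its log2 fold change was 0.03 ± 0.13 (95% interval -0.28 to 0.34, adjusted p = 0.929 by limma-trend). Its sign turned on the TPM scale (-0.02), without control replicate 3 (-0.09) and without GC replicate 2 (-0.04). Il13ra1 was at 7.24, 9.64 and 7.04 in control and 7.19, 11.4 and 9.79 FPKM in GC. Replicate 2 was the highest in each group and the groups overlapped, with a log2 fold change of 0.21 ± 0.18 (95% interval -0.20 to 0.63, adjusted p = 0.574 by limma-trend). Il17ra, the common chain of interleukin 17 receptors, was at 3.50, 3.51 and 3.22 in control and 3.00, 3.19 and 2.97 FPKM in GC. All GC libraries lay just below all controls, and the log2 fold change of -0.12 ± 0.10 did not pass (adjusted p = 0.571 by limma-trend).

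**Figure D3:**
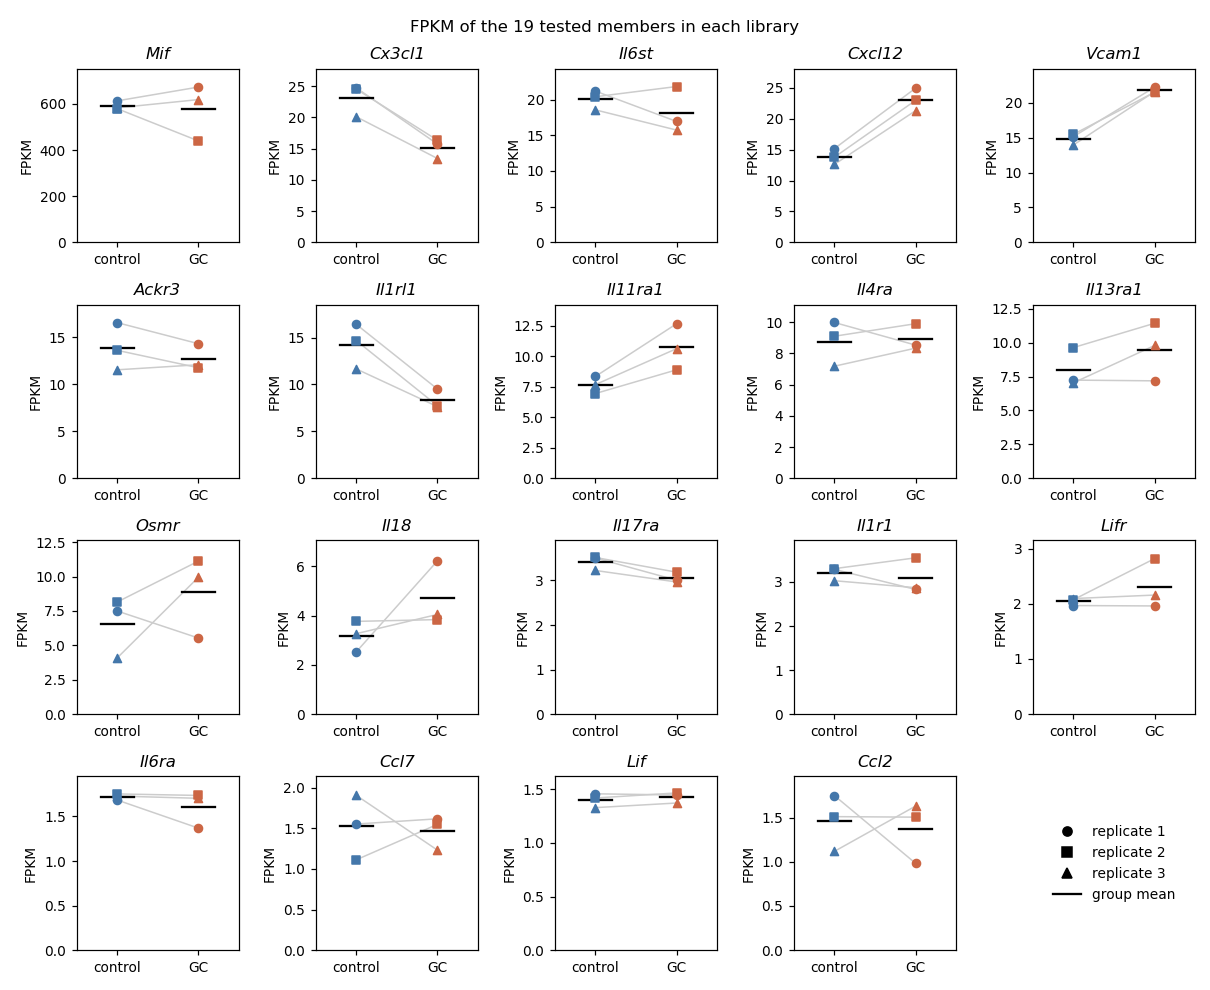
FPKM of each of the 19 tested members in control (blue) and GC (orange) libraries, on linear axes from 0, with a marker shape for each replicate number, grey lines between libraries of the same number and black bars at group means. Cxcl12 and Vcam1 climb along all 3 lines, Cx3cl1 and Il1rl1 descend along all 3, and the lines of Osmr, Ccl2 and Ccl7 cross.

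Among the adhesion molecules Vcam1 was well expressed while Icam1 and Icam2 were near 0. Vcam1 (ENSMUSG00000027962.14) lies on the minus strand at chr3:116109949-116129688 in mm10, with 8870 exon bases. Its product binds the integrin VLA-4 on leukocytes and blood-forming cells. The FPKM of Vcam1 was 15.2, 15.5 and 14.0 in control and 22.3, 21.5 and 21.6 in GC. Within each group the values were close, and every GC library lay above every control. The means were 14.9 ± 0.802 and 21.8 ± 0.394 FPKM (SD, n = 3 each), a ratio of 1.47. On the log2 scale Vcam1 rose by 0.52 ± 0.09 (SE, 95% interval 0.31 to 0.73), with an adjusted p of 0.0372 by limma-trend, on 1949 to 3352 reads per library. Differences within replicate numbers were 0.52, 0.45 and 0.59.

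The call of Vcam1 was lost on the TPM scale, with a log2 fold change of 0.47 and an adjusted p of 0.0548 by limma-trend, and without a filter on low values, with an adjusted p of 0.131. It was also lost when any library but GC replicate 2 was left out, with adjusted p-values by limma-trend of 0.145, 0.172 and 0.170 without control replicate 1, 2 or 3, 0.0676 without GC replicate 1 and 0.132 without GC replicate 3, against 0.0236 without GC replicate 2. Vcam1 shares 61 exon bases with Gm43109 on the opposite strand, a gene that did not pass the filter. Cxcl12 and Vcam1 are both among the tested genes with the longest exon sequence, where 2331 genes of 7341 to 41155 bases had a median log2 fold change of -0.13. The integrin chain Itga4, which binds VCAM1, had 3 reads in control replicate 1 and none elsewhere. Icam1, which binds leukocyte integrins with the chain Itgb2, had 1, 1 and 0 reads in control and 0, 0 and 3 in GC, and shares 511 exon bases with the antisense gene Gm47079. Icam2, known from endothelial cells, had 1 read, in GC replicate 2.

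The 21 members below the filter included the classical inflammatory genes. Of these, 16 had at most 10 reads over all 6 libraries together, and none of these 16 exceeded 0.347 FPKM in any library. Only Il6, Cxcl10, Ccl9, Ccl5 and Il15 had more than 10 reads, with 123, 92, 47, 37 and 14. The chemokines Cxcl5, a neutrophil attractant, and Cxcl14 were listed at 0 in all libraries, as were the inflammatory cytokine Il1b and the granulocyte and macrophage growth factor Csf2. With a floor of 3 reads per library, an undetected level could be up to 0.103 FPKM for Cxcl5, 0.105 for Cxcl14, 0.1 for Il1b and 0.239 for Csf2. Such floors cover counting error only.

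Il6 (ENSMUSG00000025746.11, chr5:30013114-30019981, plus strand), the cytokine of the acute phase and of osteoclast support, was at 0.128, 0.315 and 0.393 in control and 0.485, 0.852 and 0.860 FPKM in GC. These values stood for 5, 12 and 15 reads in control and 20, 35 and 36 in GC. Every GC library was above every control, and control replicate 1 was the lowest. The means were 0.279 ± 0.136 and 0.732 ± 0.214 FPKM (SD, n = 3 each), a ratio of 2.63. The two-sided exact permutation test gave p = 0.1, the smallest that 3 against 3 libraries allows. limma-voom on rows with at least 10 reads, a test added after the data were seen, gave a log2 fold change of 1.45 ± 0.51, an unadjusted p of 0.0153 and an adjusted p of 0.178. That test called 2.28% of all its rows and none of the 8 members below the filter that entered it, of which 2 had an unadjusted p under 0.05.

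Il11, the ligand of Il11ra1, was the other of these 2, and its reads ran the opposite way. It had 3, 4 and 2 reads in control and 0, 1 and 0 in GC, so the groups did not overlap, on 10 reads in all. Its limma-voom log2 fold change was -2.34 ± 1.03 with an adjusted p of 0.275, and the exact permutation p was 0.1. Cxcl10, an interferon-induced chemokine, had 4, 15 and 11 reads in control and 33, 13 and 16 in GC. GC replicate 1 stood apart and the rest overlapped, with an adjusted p of 0.455 by limma-voom. Cxcl10 shares 133 exon bases with Art3 on the opposite strand.

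Ccl5, a T-cell attractant also called RANTES, had 7, 5 and 1 reads in control and 11, 7 and 6 in GC, and Ccl9, a chemokine that draws osteoclast precursors in mice, had 5, 10 and 8 in control and 10, 5 and 9 in GC. Both overlapped between groups, with adjusted p-values by limma-voom of 0.579 and 0.976. Ccl8, a further monocyte attractant, had 3 reads in GC replicate 2, equal to 0.347 FPKM, and none elsewhere. Il15, a growth factor of lymphocytes, had 1, 2 and 1 reads in control and 0, 4 and 6 in GC.

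The neutrophil attractants were seen in few libraries: Cxcl1 had 5 and 2 reads in GC replicates 1 and 2 and none elsewhere, and Cxcl2 had 6 reads in GC replicate 2 and none elsewhere. Il1a, an alarm cytokine, had 1, 2 and 0 reads in control and 0, 3 and 4 in GC. Tslp, which acts on dendritic cells, had 2, 0 and 1 in control and 3, 0 and 1 in GC, and Cxcl16, a transmembrane chemokine, had 2, 0 and 0 in control and 1, 0 and 2 in GC. Csf3, the granulocyte growth factor, had 3 reads in control replicate 1 only. A total of 1 read over all 6 libraries was found for 6 members: tumour necrosis factor Tnf, the interleukin 1 antagonist Il1rn, the inducible nitric oxide synthase Nos2, Icam2, the interferon-induced chemokine Cxcl9 and the lymphocyte attractant Ccl20. Differences in these genes were not detectable at this depth.

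**Figure D4:**
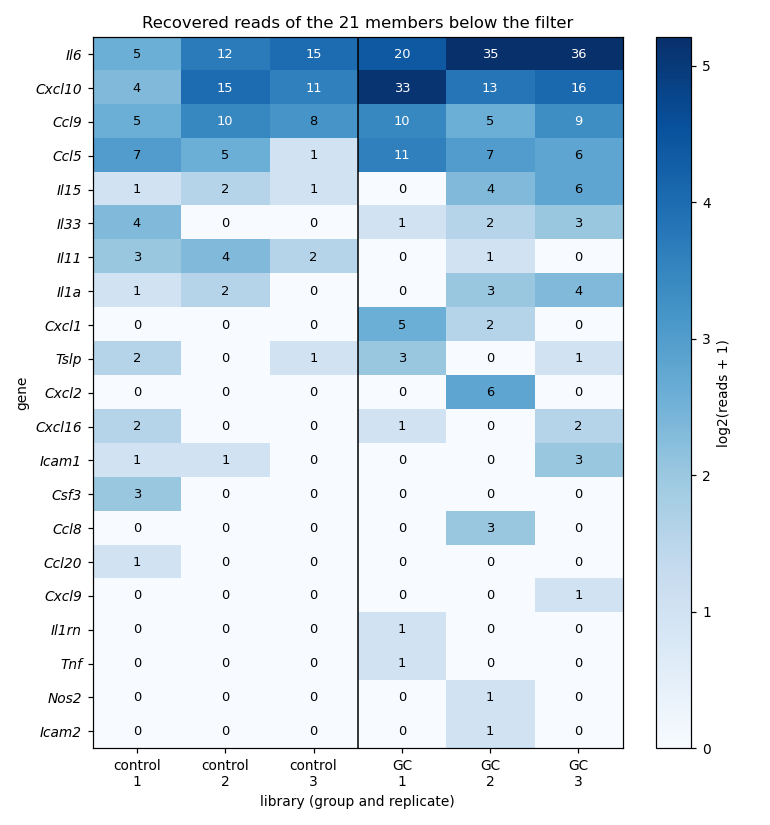
Recovered reads of the 21 members below the filter in each library, with controls left and GC right of the black line and darker blue for more reads on a log2(reads + 1) scale. Il6 is the darkest row, with 5 to 15 reads in control and 20 to 36 in GC, and 16 of the 21 genes have at most 10 reads in all.

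Other genes of the same pathways were taken from lists. Of 36 JAK, STAT, SOCS and interleukin 1 adaptor genes 31 were tested, and none passed, while 9 (29%) had an unadjusted p under 0.05, as did 19.3% of all tested rows. In limma-voom on rows past the filter 0 passed as well, while on rows with at least 10 reads Socs7 passed (adjusted p = 0.0470). The replicate block called 0 higher and 2 lower, beside 3.96% higher and 5.0% lower of all tested rows. Without GC replicate 2, limma-trend called 1 higher and 2 lower, and 465 higher and 762 lower of all 11730 tested rows. The median log2 fold change of the 31 genes was -0.10, beside -0.01 for all tested genes, with 8 positive and 23 negative. The 2 that fell with the block were the SOCS family genes Socs5, at 46.2 ± 2.73 in control and 34.2 ± 4.09 FPKM in GC, and Socs7, at 11.2 ± 0.824 and 7.40 ± 1.11 FPKM (SD, n = 3 each). limma-trend gave adjusted p-values of 0.117 and 0.0753 without the block and 0.0337 and 0.0214 with it.

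Of 61 further ligands and receptors 22 were tested, and none passed. limma-voom passed 0 as well, 4 (18.2%) had an unadjusted p under 0.05 beside the same 19.3%, and the median was 0.01. Cd74 was the gene that passed with the block, which called 8.96% of all tested rows. Csf1, the macrophage and osteoclast growth factor, was abundant at 171 ± 5.28 in control and 186 ± 9.71 FPKM in GC, and the tumour necrosis factor receptor Tnfrsf1a was at 106 ± 11.9 and 108 ± 10.4 FPKM (SD, n = 3 each). Neither passed, with adjusted p-values of 0.661 and 0.950 by limma-trend.

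Of 29 further adhesion genes 13 were tested, 1 rose and 1 fell, and the median was 0.12. Calls in either direction made up 1.94% of all tested rows. Before adjustment, limma-trend placed 7 of the 13 (53.8%) below 0.05, beside 19.3% of all tested rows. Groups were apart as higher in 6 of the 13 and as lower in 1, beside 10.8% and 14.8% of all tested rows. These shares rest on 13 genes. Cd200, a ligand that restrains myeloid cells, was at 1.77 ± 0.366 in control and 4.18 ± 0.780 FPKM in GC (SD, n = 3 each), and rose by 0.90 ± 0.15 on the log2 scale with an adjusted p of 0.0362 by limma-trend. The sialomucin Cd34, known from blood-forming and endothelial cells, was at 44.7 ± 3.88 in control and 24.4 ± 3.18 FPKM in GC, and fell by 0.85 ± 0.13 on the log2 scale with an adjusted p of 0.0250 by limma-trend. Cd200 lost its call without any library but GC replicate 2 (adjusted p by limma-trend 0.0682 to 0.146, against 0.0304 without that library). Cd34 lost it without any control or GC replicate 3 (0.0810 to 0.126) and kept it without GC replicate 1 or 2 (0.0182 and 0.0218). With the replicate block Nectin1, a cell junction molecule, passed as well (adjusted p = 0.0250 by limma-trend), as it did by limma-voom (0.0498). The block called 8.96% of all rows it tested and limma-voom 3.03%.

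**Figure D5:**
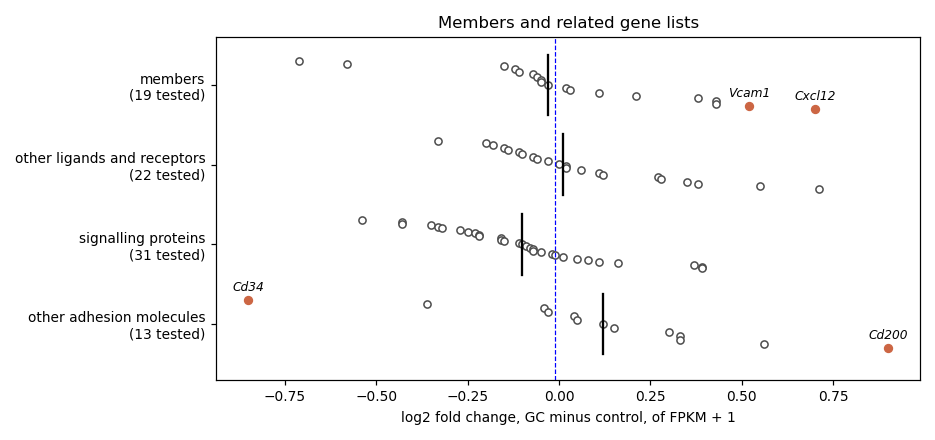
Log2 fold change of FPKM + 1, GC minus control, of the tested genes in 4 groups (members, other ligands and receptors, signalling proteins, other adhesion molecules), with filled orange points past an adjusted p of 0.05, black bars at each group's median and a dashed blue line at the median of all tested genes, -0.01. The 4 filled points are Cxcl12 at 0.70, Vcam1 at 0.52, Cd200 at 0.90 and Cd34 at -0.85.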

How the data were processed

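The deposited table held FPKM made by the authors for 54532 rows and 6 libraries. Its header names no unit. Multiplied by exon length (GENCODE M21, mm10) and a depth per library, 25621 of 26482 matched rows above 0 (96.7%) gave whole reads within 0.0001 in all libraries, and 854 more did with another length. HISAT2, HTSeq, DESeq2 and mm10 are listed per the submitters' processing notes. Not given in the sources used here are the annotation release and the strand setting, so antisense overlaps could not be told apart.

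Rows that reached 1 FPKM in 3 or more libraries were tested on log2(FPKM + 1) with limma-trend (limma 3.58.1, R 4.3.3), two-sided, with Benjamini-Hochberg adjustment over 11730 rows and a threshold of 0.05. The procedure was run on simulated data. Values there were drawn independently for each gene and library, so that run cannot speak to a pairing of libraries. A count test was not the main result because the deposited unit is not counts. Alternatives were no filter, a filter at 5 FPKM, pseudocounts of 0.1 and 0.5, the replicate block, no trend or robust option, a TPM scale, limma-voom on recovered reads, leaving out each library, and, added after seeing the data, limma-voom on rows with at least 10 reads.

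Deviations from group means correlated between control and GC libraries of the same number (0.511, 0.248 and 0.383, over 0.1), so the numbers, taken from the sample titles, may pair the libraries. The main test has no block, and blocked values are given where they change a call. The labels say nothing of shared cultures.

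Members, related lists and markers were chosen with earlier results of these data known. Every member is described; those past the filter, or reaching 0.3 FPKM, get values per library, and in each related list genes past the threshold are named. Related genes named without passing, and some promoters, were chosen after their values were seen. The result of 1 marker list is not reported here.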

Additional observations from a re-analysis of the deposited data

How the results depend on the processing

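The 2 members and 227 genes called of all 11730 tested depended on the setting. Members called numbered 0 without a filter and 4 of the 11 tested with a filter at 5 FPKM. They numbered 5 with the replicate block and 4 by limma-voom, also on rows with at least 10 reads. All genes called numbered 17 of 26749 tested without a filter and 265 of 7728 tested with the filter at 5 FPKM. They numbered 1051 with the replicate block, 353 by limma-voom and 411 by limma-voom on rows with at least 10 reads. That last setting was added after the data were seen. Leaving out 1 library gave 0 to 4 members and 16 to 1227 genes. The fewest genes came without GC replicate 3. The most came without GC replicate 2, when 4 members passed, 3 higher and 1 lower, and without each of the other 5 libraries 0 passed. The block changed the call of 3 members, Cx3cl1, Il1rl1 and Il11ra1, and of none of the other 16. Signs turned only in members that passed in no setting: leaving out 1 library gave log2 fold changes of -0.16 to 0.07 for Ccl2, -0.15 to 0.08 for Ccl7, -0.23 to 0.01 for Ackr3, -0.09 to 0.12 for Il4ra, -0.01 to 0.03 for Lif and -0.18 to 0.13 for Mif. On the TPM scale, which moved the median of all genes from -0.01 to -0.06, Il4ra and Lif were both at -0.02, Vcam1 lost its call and Il1rl1 gained one. The causes were not tested. Both pseudocounts and the fit without trend and robust options left the call and direction of all 19 members as they were. Depth limits the 25 members below the filter or at 0, which had 385 reads in all.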
